A study of Mus musculus with 6 samples.

Results

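The genes described here carry fatty acids inside and into the cell and read them out in the nucleus: 6 fatty acid binding proteins (*Fabp1*, *Fabp2*, *Fabp3*, *Fabp4*, *Fabp5* and *Fabp7*), the fatty acid receptor *Cd36*, and the nuclear receptors *Ppara*, *Ppard* and *Pparg*. They were chosen by symbol as the family and partners of *Fabp3*, which had been selected on its lower level in sg*Kmt2c* cells of these same data. All 10 were found among the 20856 genes with values. RNA was sequenced from 6 cell lines grown out of liver tumors of C57BL/6 mice. Each tumor had been started by hydrodynamic injection of a *Myc* transposon with a Cas9 plasmid whose guide RNA targeted *Trp53* (labelled sgp53, 3 lines) or *Kmt2c* (labelled sgMll3, 3 lines). All lines thus carry the *Myc* transgene and neither genotype has both genes intact, so no line serves as a control without an edited tumor suppressor. The guide against *Kmt2c* can leave a heterozygous edit, the lines grew on collagen in medium with 10% serum without further treatment until no fibroblasts were visible. Per the study's methods female mice were obtained at 8 to 10 weeks of age.

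Fatty acid binding proteins are small barrel-shaped proteins that hold a fatty acid in their core and move it through the watery cytoplasm to mitochondria, peroxisomes, lipid droplets or the nucleus. Each is named for the tissue where it was first found, and the hepatocyte's own form is *Fabp1*. In the nucleus, peroxisome proliferator-activated receptors (PPARs) bind fatty acids as ligands and, paired with a retinoid X receptor, sit on DNA at a repeated half-site separated by a single base (a DR1 element), where they switch on genes of fat burning (PPARα, PPARδ) or fat storage (PPARγ). *Cd36* at the cell surface takes up long-chain fatty acids, and several *Fabp* genes and *Cd36* are themselves textbook PPAR targets.

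The values are RPKM, read numbers divided by the transcript length listed for a gene and by the depth of the library. Behind them stood 5312182 to 6878625 reads in the sg*Trp53* libraries (median 6088680) and 3680068 to 4704539 in the sg*Kmt2c* libraries (median 4268080), so that each sg*Kmt2c* library was the shallower. *Trp53* lay at 17.2 to 19.4 RPKM among sg*Trp53* cells and at 92.2 to 124 RPKM among sg*Kmt2c* cells, as labelled, while *Kmt2c* RNA overlapped (18.4 to 24.2 and 9.51 to 25.0 RPKM). The line sg*Kmt2c* replicate 1 stood apart, with Pearson correlations of 0.759 to 0.836 to the other lines over all genes tested, where the other pairs gave 0.881 to 0.951. Against the label of a liver tumor line, *Alb*, the defining hepatocyte product, reached at most 4.36 RPKM in any line. Differences between the genotypes were tested with limma on log2(RPKM + 1) over the 11617 genes with at least 1 RPKM in at least 3 of the 6 lines, with Benjamini-Hochberg adjustment over all of them. Of these, 0.129% passed an adjusted p-value of 0.05 and 8.58% an unadjusted one. In bulk RNA a smaller share of cells that express a gene and less RNA per cell cannot be told apart.

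*Fabp3* encodes the heart-type fatty acid binding protein. The gene lies on the plus strand of chromosome 4 (130308595 to 130315463, GRCm38), and its promoter and that of *Fabp1* are shown because these genes mark the contrast in the family, the former between the genotypes and the latter in a single line. Both run from 250 bases before to 50 bases after the annotated start (RefSeq, GRCm38.p6, plus strand), *Fabp3* at chr4:130308488-130308787 and *Fabp1* at chr6:71199629-71199928. Capitals mark the match to the DR1 element AGGTCANAGGTCA with at most 1 mismatch on either strand.
Fabp3 promoter: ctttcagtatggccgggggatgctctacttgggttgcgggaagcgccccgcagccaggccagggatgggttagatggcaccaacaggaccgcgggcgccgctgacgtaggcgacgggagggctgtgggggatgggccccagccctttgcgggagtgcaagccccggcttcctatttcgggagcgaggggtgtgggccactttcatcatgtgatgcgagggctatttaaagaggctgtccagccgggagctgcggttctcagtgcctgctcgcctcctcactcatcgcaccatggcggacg
Fabp1 promoter: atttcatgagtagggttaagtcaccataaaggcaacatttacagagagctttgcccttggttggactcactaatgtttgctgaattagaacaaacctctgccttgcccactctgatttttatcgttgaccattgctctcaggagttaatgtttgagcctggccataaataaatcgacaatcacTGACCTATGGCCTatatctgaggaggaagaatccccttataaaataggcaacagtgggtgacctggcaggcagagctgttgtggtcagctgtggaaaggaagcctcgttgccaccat
The *Fabp3* promoter held no such match, 22 CpG dinucleotides and 65% G and C. Of all 32851 mouse promoters of this length 76.9% had fewer CpG, and their median was 7. The *Fabp1* promoter held a DR1 match on the minus strand that begins 67 bases before the start, and the letters TATAAA downstream of it. A DR1 match occurred in 182 of the 32851 promoters (0.554%) and TATAAA in 8.32%. Promoters of 8 of the 10 genes were found in the table, and those of *Fabp2*, *Fabp7*, *Cd36*, *Ppara*, *Ppard* and *Pparg* held no DR1 match in these windows. A match is a stretch of letters and not a measured binding site.

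The *Fabp3* values that selected the family are a description and were not tested. *Fabp3* lay at 7.17, 11.4 and 6.88 RPKM in sg*Trp53* replicates 1, 2 and 3 and at 0.258, 0 and 0.568 RPKM in sg*Kmt2c* replicates 1, 2 and 3. The lines did not overlap, and each sg*Trp53* line was well above each sg*Kmt2c* line. Behind these values stood 36, 50 and 39 reads against 1, 0 and 2, and no reads in sg*Kmt2c* replicate 2 allow a level of up to 0.989 RPKM (3 reads). Summed over the lines and per depth, *Fabp3* was 28.8-fold lower among sg*Kmt2c* cells, with an exact 95% counting interval of 9.64 to 142 that covers counting error only. The log2 fold change on log2(RPKM + 1) was -2.89, which understates the change of so low a gene. Lines of the same genotype differed in *Fabp3* by an SD of 0.35 on the log2 scale, close to the median of 0.37 over all genes tested. With so few reads in the sg*Kmt2c* lines, log2(RPKM + 1) narrows their spread, so this SD is likely too small. The pseudogene *Fabp3-ps1* on chromosome 10 followed at 4, 2 and 5 reads against 0, 0 and 1, and how the counting shared reads between these near-identical sequences is not given in the sources used here.

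**Figure D1:**
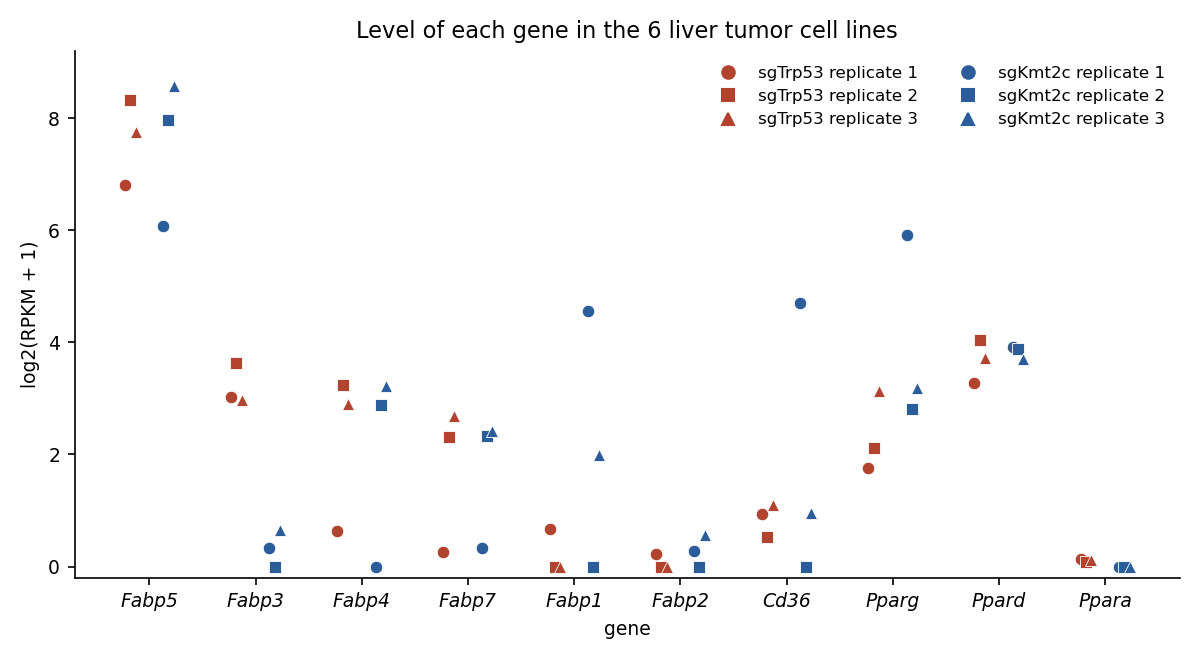
Level of each gene, log2(RPKM + 1), in the 6 lines (red, sg*Trp53*; blue, sg*Kmt2c*; circle, square and triangle for replicates 1, 2 and 3). *Fabp3* separates the genotypes, *Fabp4*, *Fabp5* and *Fabp7* are lowest in the circles of both colors, and *Fabp1*, *Cd36* and *Pparg* are highest in the blue circle.

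*Fabp5*, the epidermal form that delivers ligand to PPARδ, gave the highest RPKM of the family in every line. *Fabp5* (chromosome 3, 10012548 to 10016607) lay at 110, 319 and 214 RPKM among sg*Trp53* cells and at 66.7, 250 and 380 RPKM among sg*Kmt2c* cells. The lines overlapped, replicate 1 of each genotype was the lowest of its genotype, and the highest and the lowest line were both sg*Kmt2c*. The log2 fold change was -0.081 (SE 0.69, 95% interval -1.74 to 1.57, adjusted p = 0.974 from limma), so that a difference of several-fold in either direction is inside the interval. Of all *Fabp* reads, *Fabp5* made up 93.0% to 94.0% among sg*Trp53* cells and 83.3%, 96.5% and 96.5% in sg*Kmt2c* replicates 1, 2 and 3. The 6 *Fabp* genes together took 116, 335 and 227 RPM (reads scaled to the library total as in RPKM, without the length) among sg*Trp53* cells and 79.1, 256 and 389 among sg*Kmt2c* cells, so the pool as a whole overlapped between the genotypes. *Fabp5* has processed copies elsewhere in the mouse genome, and its level is uncertain to the extent that reads were split with them.

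*Fabp4*, the adipocyte and macrophage form, lies 187 kb from *Fabp5* on chromosome 3 (10204088 to 10208576). Its levels were 0.549, 8.39 and 6.48 RPKM among sg*Trp53* cells and 0, 6.36 and 8.35 RPKM among sg*Kmt2c* cells. Replicate 1 of each genotype held at most 3 reads, the other lines 21 to 40, and a count of 0 in sg*Kmt2c* replicate 1 allows up to 0.711 RPKM. The log2 fold change was -0.22 (SE 1.04, 95% interval -2.71 to 2.27, adjusted p = 0.951 from limma). The gene between them in the table with reads, *Gm9833*, stayed between 9.39 and 18.6 RPKM in all lines, while *Pmp2* and *Fabp12* of the same cluster had 0 reads in each. The brain form *Fabp7* (chromosome 10, 57784881 to 57788450) was also lowest in replicate 1 of each genotype, at 0.204, 3.97 and 5.42 RPKM among sg*Trp53* cells and 0.264, 4.05 and 4.36 RPKM among sg*Kmt2c* cells. Replicate 1 of each genotype held a single *Fabp7* read and the other lines 12 to 30. Its log2 fold change was -0.056 (SE 0.82, 95% interval -2.02 to 1.91, adjusted p = 0.986 from limma). In *Fabp4*, *Fabp5* and *Fabp7* the ranges of the genotypes overlapped, and leaving out sg*Kmt2c* replicate 1 turned the log2 fold changes to 0.80, 0.65 and 0.63. Leaving out sg*Trp53* replicate 1 instead gave -1.03, -0.49 and -0.80. None was past the threshold in either case.

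The lines numbered 1 were the lowest pair of all 6 in 3 of the 6 family genes tested (*Fabp4*, *Fabp5* and *Fabp7*), against 6.47% of all genes tested. This pattern was picked after the values were seen, so the shares are a description only. *Fabp4* and *Fabp7* were under 1 RPKM in both lines and passed the filter only through the other lines. The number is a label, and the labels name no shared origin of these lines. The summed fibroblast and stellate cell markers were lowest in the same lines, where 9 markers summed to 41.6 and 1.49 RPM in sg*Trp53* and sg*Kmt2c* replicate 1 and 385 to 3013 in the other lines. Of these markers 7 of 9 were at 0 reads in sg*Kmt2c* replicate 1, while the collagen gene *Col3a1* reached 814 RPKM in sg*Trp53* replicate 2, and *Lrat*, which defines stellate cells, had 0 reads in all 6 lines. Their part in the levels of *Fabp4*, *Fabp5* and *Fabp7* was not tested. Collagen genes gave most of the summed reads in replicates 2 and 3 of both genotypes, and *Dcn* of the same list, picked after its values were seen, had another order, at 7.39, 0.897 and 8.16 RPKM against 0, 0 and 0.248 RPKM. *Dcn* lay lower in each sg*Kmt2c* line as *Fabp3* did, while the summed list was at 41.6 RPM in sg*Trp53* replicate 1 and at 522 RPM in sg*Kmt2c* replicate 2. Macrophage markers, in turn, summed to 51.4 to 119 RPM among sg*Trp53* cells and 55.2 to 121 among sg*Kmt2c* cells. The sum combines members of opposite direction. *Lyz2* (29.0, 17.1 and 45.3 against 0, 0.21 and 12.4 RPKM) and *Csf1r* (10.0, 1.70 and 8.33 against 0.93, 0 and 0.97 RPKM), picked after their values were seen, lay lower in each sg*Kmt2c* line as *Fabp3* did, and *Cd14* lay higher, at 30.7 to 70.3 against 11.4 to 13.6 RPKM. On few reads, *Tyrobp* (2.33, 0.667 and 2.32 against 0, 0 and 0 RPKM) and *Adgre1* (0.202, 0.290 and 0.492 against 0, 0 and 0.0721 RPKM) also lay lower. *Cd68* and *Marco* overlapped between the genotypes. *Ptprc*, the pan-leukocyte marker, overlapped too and stayed at or under 0.07 RPKM in every line. Their part in the *Fabp3* difference was not tested.

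**Figure D2:**
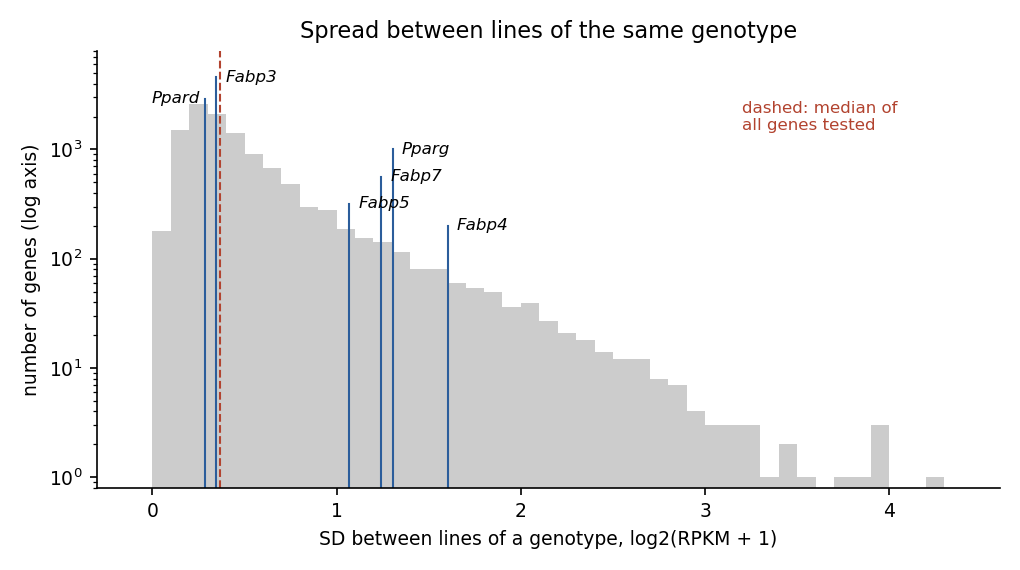
Number of genes (log axis) by the SD between lines of the same genotype, in log2(RPKM + 1), for all 11617 genes tested, with the 6 family genes tested as vertical lines. *Ppard* (0.29) and *Fabp3* (0.35) lie below the median of 0.37 (dashed), and *Fabp5* (1.07), *Fabp7* (1.24), *Pparg* (1.30) and *Fabp4* (1.60) in the upper tail. The SD of *Fabp3* includes sg*Kmt2c* lines with few or no reads, where log2(RPKM + 1) narrows the spread.

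The liver form *Fabp1* (chromosome 6, 71199827 to 71205023) had few or no reads in 5 of the 6 liver tumor lines. It had 2, 0 and 0 reads among sg*Trp53* cells and 59, 0 and 7 among sg*Kmt2c* cells, which is 0.593, 0 and 0 against 22.6, 0 and 2.96 RPKM. *Fabp1* in sg*Kmt2c* replicate 1 was thus 7.65-fold above the next line, sg*Kmt2c* replicate 3, and sg*Kmt2c* replicate 2 had no reads like 2 of the sg*Trp53* lines. It missed the level filter, and an exact two-sided permutation test of the mean RPKM gave p = 0.4, where 3 lines against 3 cannot go below 0.1. The intestinal form *Fabp2* (chromosome 3, 122895072 to 122899506) had 1, 0 and 0 reads against 1, 0 and 2, too few for a comparison (exact permutation p = 0.4).

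*Cd36* (chromosome 5, 17781690 to 17888801) had the same high line as *Fabp1*. It lay at 0.924, 0.436 and 1.15 RPKM among sg*Trp53* cells and at 25.1, 0 and 0.931 RPKM among sg*Kmt2c* cells. The line sg*Kmt2c* replicate 1, with 357 reads, was 21.7-fold above the next line, and sg*Kmt2c* replicate 2 had 0 reads. The difference of the means, 7.85 RPKM higher among sg*Kmt2c* cells, became -0.373 RPKM without that line (exact permutation p = 0.8 with all lines).

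Of the 3 receptors, *Ppard* was the steady one. *Ppard* (chromosome 17, 28232754 to 28301469), which is found in most tissues, lay at 8.66, 15.5 and 12.2 RPKM among sg*Trp53* cells and at 14.2, 13.8 and 12.0 RPKM among sg*Kmt2c* cells. The range of the sg*Trp53* lines enclosed the sg*Kmt2c* values, and the log2 fold change was 0.16 (SE 0.26, 95% interval -0.46 to 0.78, adjusted p = 0.853 from limma). Its SD between lines of a genotype was 0.29, and 34.1% of the genes tested had a smaller one. *Ppara* (chromosome 15, 85734983 to 85802819), the main receptor of fat burning in normal liver, had 2, 1 and 2 reads among sg*Trp53* cells and 0 in each sg*Kmt2c* line. Those counts are under the limit that a count of 0 allows (3 reads), so no difference can be read at this depth (exact permutation p = 0.1, the smallest these numbers of lines allow).

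*Pparg* (chromosome 6, 115361221 to 115490401), which drives fat storage, lay at 2.38, 3.34 and 7.74 RPKM among sg*Trp53* cells and at 59.7, 5.99 and 8.06 RPKM among sg*Kmt2c* cells. The line sg*Kmt2c* replicate 1 was 7.40-fold above the next line, and the other lines of the genotypes overlapped. The means were 4.49 ± 2.86 RPKM (SD, n = 3) and 24.6 ± 30.4 RPKM (SD, n = 3). The log2 fold change of *Pparg*, 1.63 (SE 0.85, 95% interval -0.40 to 3.66, adjusted p = 0.635 from limma), did not pass the threshold and dropped to 0.66 without that line.

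**Figure D3:**
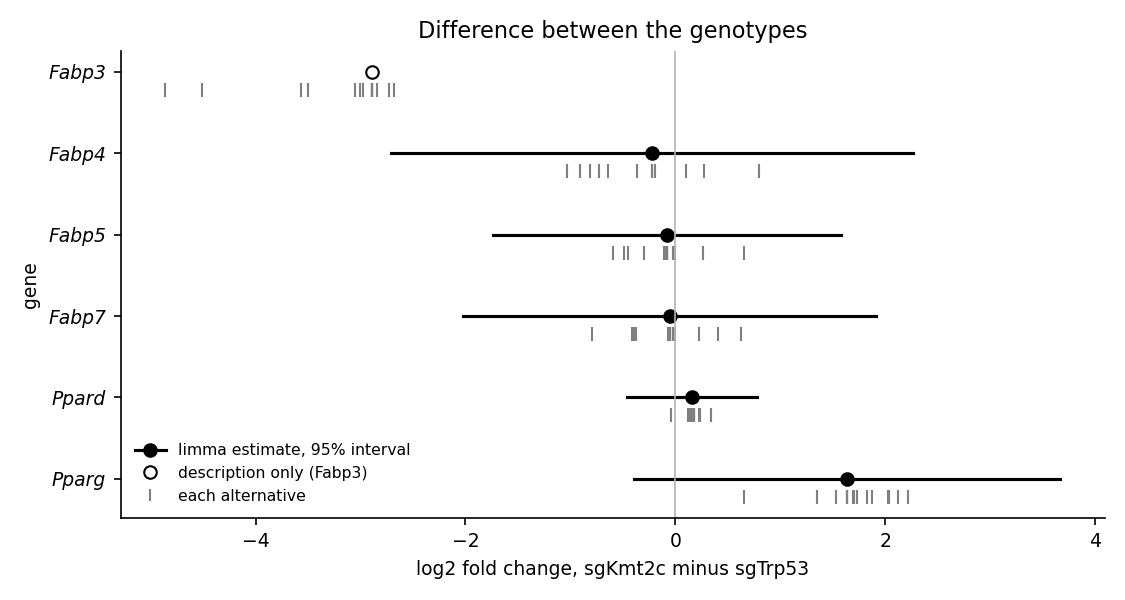
Log2 fold change (sg*Kmt2c* minus sg*Trp53*) of the 6 family genes that could be tested, with the 95% interval of limma (black) and the value under each alternative (grey ticks). The interval includes 0 in the 5 genes tested, *Pparg* has the highest estimate at 1.63, and *Fabp3* (open) is a description without interval.

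Leaving out *Fabp3*, 5 family genes passed the level filter and were tested, and 0 of 5 passed an adjusted or an unadjusted p-value of 0.05 (limma). Of all genes tested 0.129% passed the former and 8.58% the latter, so 0 of 5 says little about the family. In all 16 alternatives 0 of these 5 passed the adjusted threshold, and at most 1 the unadjusted one. In these 5 genes the lines of the genotypes overlapped in each, where 5.72% of all genes tested had every sg*Kmt2c* line higher and 10.4% every sg*Kmt2c* line lower. The spread between lines of a genotype was large: the median SD of the 6 tested genes with *Fabp3* was 1.15 on the log2 scale against 0.37 for all genes tested.

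The summed hepatocyte and bile duct markers were highest in the same line as *Pparg*, *Cd36* and *Fabp1*. The 9 hepatocyte markers in the table summed to 5539 RPM in sg*Kmt2c* replicate 1, to 3.26 and 347 in sg*Kmt2c* replicates 2 and 3, and to 35.8 to 79.1 among sg*Trp53* cells. Nearly all of the sum in sg*Kmt2c* replicate 1 came from *Apob* (4385 RPKM in that line, at most 129 in the others) and *Hnf4a* (1186 and at most 170 RPKM). Both are set on short listed transcripts and encode the apolipoprotein of secreted fat and a master regulator of hepatocytes. At lower levels *Alb*, *Apoa1*, *Ttr*, *Serpina1a* and *Cps1* were also highest in sg*Kmt2c* replicate 1 (1.38 to 14.1 RPKM, at most 1.60 in the other lines). *Fgb* was highest in sg*Kmt2c* replicate 3 (32.5 RPKM, against 20.1 in sg*Kmt2c* replicate 1), and *Cyp2e1* had 0 reads in sg*Kmt2c* replicate 1. The 6 biliary or progenitor markers summed to 4587 RPM in that line, 155 to 1488 among sg*Trp53* cells and 157 and 699 in the other sg*Kmt2c* lines. More than any other marker *Krt19* made up that sum (1866 RPKM, at most 223 in the other lines). *Krt7* (990 RPKM, at most 94.7 in the other lines) and *Epcam* (27.0 RPKM, at most 6.88) were also highest in that line. *Spp1* (578 RPKM, 682 in sg*Trp53* replicate 3), *Sox9* (6.36 RPKM, 11.9 in sg*Kmt2c* replicate 3) and *Prom1* (0.43 RPKM, 5.54 in sg*Trp53* replicate 1) were highest in other lines. Of the 3 adipocyte markers in the table *Cidec* gave the signal of 45.3 RPM for the list in that line, against at most 0.291 in the others, while *Retn* had 0 reads in each line. Endothelial markers summed to 2.96 to 5.71 RPM in all lines. What part these markers have in the *Pparg*, *Cd36* and *Fabp1* levels was not tested.

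**Figure D4:**
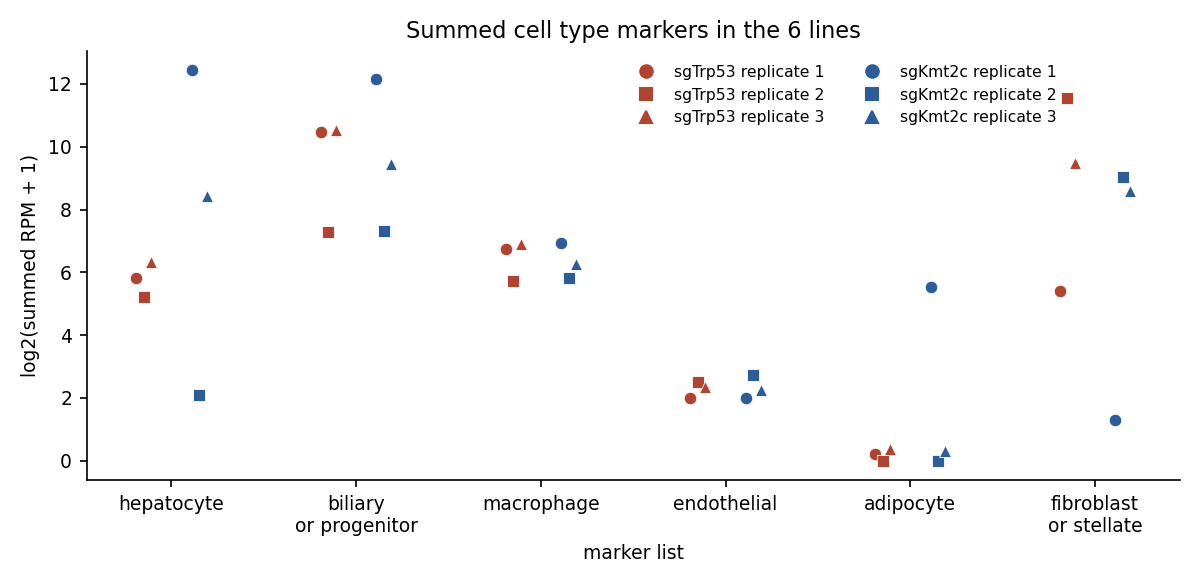
Summed reads of 6 lists of cell type markers in each line, as log2(RPM + 1), with colors and symbols for genotype and replicate. The line sg*Kmt2c* replicate 1 (blue circle) is highest for hepatocyte, biliary and adipocyte lists and lowest for fibroblast or stellate cells. It is also highest for the macrophage list, by a small margin (121 RPM against 119 in sg*Trp53* replicate 3).

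The wider pathway was read from 5 lists with 97 entries, of which 92 were in the table and 63 could be tested. None of the 63 passed an adjusted p-value of 0.05 (0 of 63, smallest adjusted p = 0.388, limma), and 4 passed an unadjusted one (6.35%, against 8.58% of all genes tested). In 11 of 63 the lines did not overlap, 6 with the sg*Kmt2c* lines higher and 5 lower, which is 17.5%, where the background of all genes tested is 5.72% higher and 10.4% lower. The lists' median log2 fold changes lay between -0.18 and 0.17 apart from the list of other lipid-binding proteins, of which only *Rbp2* could be tested (0.67, adjusted p = 0.779 from limma). All genes tested had a median of -0.086.

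Among partners and coregulators of the PPARs, 15 of 16 genes were tested, with a median log2 fold change of 0.074. *Lpin1*, a phosphatidate phosphatase that also acts as a PPARα coactivator, lay at 3.38, 7.12 and 3.15 RPKM among sg*Trp53* cells and at 8.83, 17.6 and 12.0 RPKM among sg*Kmt2c* cells. The lines did not overlap, and the log2 fold change of 1.34 (95% interval 0.44 to 2.24) missed the threshold (adjusted p = 0.422 from limma). *Ppargc1a*, the coactivator PGC-1α, was at 3.07, 2.85 and 0.584 RPKM against 0.164, 0.168 and 1.34 RPKM. Its lines overlapped through sg*Trp53* replicate 3 and sg*Kmt2c* replicate 3 (log2 fold change -0.99, adjusted p = 0.630 from limma). *Rxra*, the DNA-binding partner of every PPAR, was present at 72.3 to 139 RPKM among sg*Trp53* cells and 113 to 254 RPKM among sg*Kmt2c* cells (log2 fold change 0.57, adjusted p = 0.709 from limma). The coactivators *Ncoa1* (0.59, adjusted p = 0.692) and *Pprc1* (0.074, adjusted p = 0.959) also overlapped between the genotypes (limma).

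Uptake and activation held the 3 other genes with an unadjusted p-value under 0.05, of 13 tested and 17 listed (median log2 fold change -0.18). Of all genes tested 8.58% had such a p-value (limma). *Acsl3*, which attaches coenzyme A to fatty acids on lipid droplets, lay at 14.7, 19.9 and 15.3 RPKM among sg*Trp53* cells and at 80.1, 29.4 and 44.5 RPKM among sg*Kmt2c* cells (log2 fold change 1.46, 95% interval 0.57 to 2.35, adjusted p = 0.388 from limma). Each sg*Kmt2c* line was above each sg*Trp53* line. *Lpl*, the lipoprotein lipase that frees fatty acids for uptake, went the other way, at 8.73, 4.20 and 8.75 RPKM against 0, 0 and 3.92 RPKM. The margin between the nearest lines was small, and its log2 fold change was -2.22 (95% interval -3.84 to -0.59, adjusted p = 0.465 from limma). *Lpl* is also made by macrophages. Of the macrophage markers *Lyz2*, *Csf1r*, *Tyrobp* and *Adgre1* lay lower in each sg*Kmt2c* line and *Cd14* lay higher, while *Cd68* and the summed list overlapped. The part of these markers in the *Lpl* levels was not tested. The transporter *Slc27a1* lay at 6.51, 7.26 and 5.30 RPKM against 3.19, 2.72 and 4.69 RPKM without overlap (log2 fold change -0.71, adjusted p = 0.560 from limma). The abundant *Got2* and the acyl-CoA carrier *Dbi* lay within 83.0 to 125 and 133 to 219 RPKM in all lines.

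Of 32 target genes of fatty acid oxidation 23 were tested, 9 with a log2 fold change above 0 and 14 below (median -0.13). None had an unadjusted p-value under 0.05 (0 of 23, against 8.58% of all genes tested, limma). *Etfdh*, which passes electrons from fat oxidation to the respiratory chain, came nearest, at 43.3, 34.8 and 32.3 RPKM against 30.8, 21.0 and 25.0 RPKM (log2 fold change -0.51, 95% interval -1.04 to 0.021, adjusted p = 0.592 from limma). *Ucp2* (-1.45, adjusted p = 0.639), *Decr1* (-0.56, adjusted p = 0.650) and *Acaa1a* (0.055, adjusted p = 0.948) overlapped between the genotypes (limma). *Plin2*, the coat protein of lipid droplets, had the widest spread, at 341, 201 and 265 RPKM among sg*Trp53* cells and 1287, 24.1 and 93.8 RPKM among sg*Kmt2c* cells. The highest and the lowest lines were both sg*Kmt2c*, and the log2 fold change of -0.86 had an interval of -4.00 to 2.28. Of 22 target genes of fat storage 11 were tested, with a median of 0.17. None had an unadjusted p-value under 0.05 (0 of 11, against 8.58% of all genes tested, limma). *Agpat2*, an enzyme of triglyceride synthesis, lay at 26.8, 25.0 and 28.3 RPKM against 84.4, 29.0 and 39.7 RPKM without overlap (log2 fold change 0.77, adjusted p = 0.628 from limma). *Pnpla2* (0.41, adjusted p = 0.712), *Dgat2* (0.97, adjusted p = 0.778), *Fasn* (-0.065, adjusted p = 0.952) and *Acaca* (0.76, adjusted p = 0.780) overlapped (limma).

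**Figure D5:**
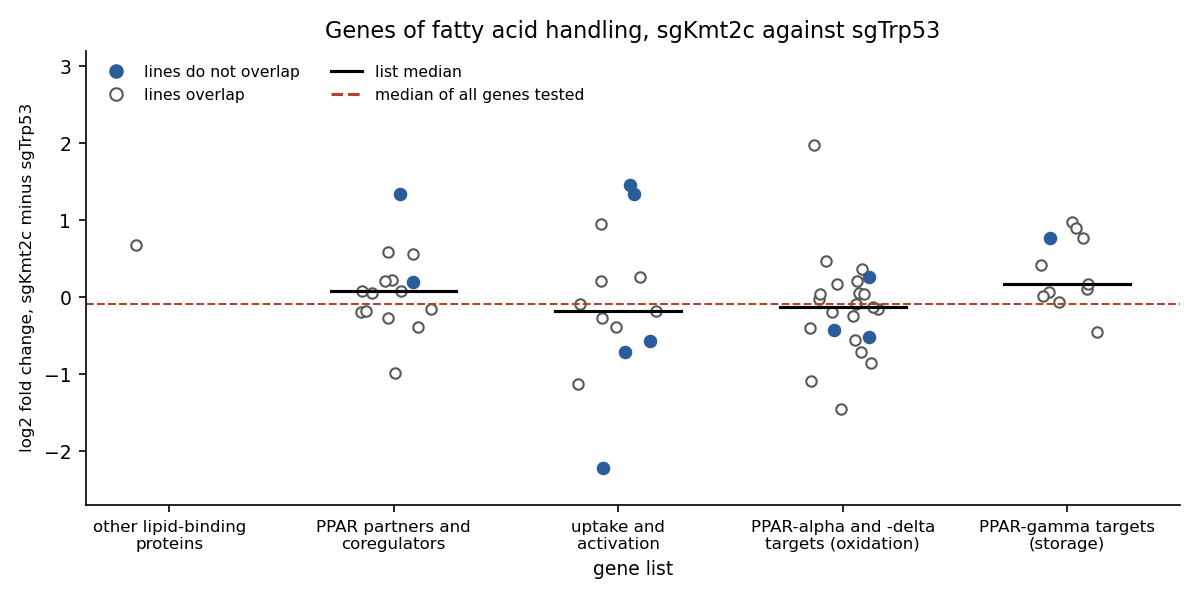
Log2 fold change (sg*Kmt2c* minus sg*Trp53*) of the 63 pathway genes tested, by list, with list medians (black bars) and the median of all genes tested (dashed, -0.086). Filled points are the 11 genes whose lines did not overlap, 6 above 0 and 5 below, with *Acsl3* (1.46) and *Lpl* (-2.22) at the ends.

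The line with high *Pparg*, *Cd36* and *Fabp1* was also the highest line in 24 of the 63 pathway genes tested (38.1%), against 23.6% of all genes tested. In 8 of them (12.7%, against 5.14% of all genes tested) sg*Kmt2c* replicate 1 exceeded every other line by at least 2-fold. Among all 92 genes in the table, 12 did so at 1 RPKM or more, and those named here were chosen after their values were seen. They include the PPARγ target *Cidec* of lipid droplet growth (26.3 RPKM, at most 0.136 in the others), *Vnn1* (94.2 and at most 7.39 RPKM), *Acsl4* (173 and at most 26.6 RPKM), *Creb3l3* (7.12 and at most 0.816 RPKM) and the fasting hormone *Fgf21* (3.88 and at most 0.312 RPKM). *Acot2*, *Agpat2*, *Plin2*, *Slc27a4* and *Vldlr* exceeded the next line by 2.13- to 3.77-fold. These are values of a single line, with no replicate behind them, in the line whose summed hepatocyte markers were highest.

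The genes whose pattern was most like that of *Fabp3* over the 6 lines, by Pearson's r of log2(RPKM + 1) and without any test, were *Ctsl* (0.996), *Igf2* (0.996), *Commd9* (0.992), *Tlr5* (0.992) and *Erp44* (0.988). All were lower among sg*Kmt2c* cells, so that the likeness mostly reads the step between the genotypes. Their highest line was sg*Trp53* replicate 2 in each, as for *Fabp3*, to which they were picked to be alike. *Igf2*, a fetal growth factor, lay at 14.0, 27.7 and 12.0 RPKM among sg*Trp53* cells and at 0, 0 and 0.946 RPKM among sg*Kmt2c* cells. *Tlr5*, the flagellin receptor, lay at 4.13 to 4.62 RPKM against 0 to 0.329 RPKM, and *Ctsl*, a lysosomal protease, at 243 to 269 against 99.0 to 114 RPKM. No other member of the fatty acid binding family was among them, and with 5 places among 11617 genes tested this says little about the family.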

How the data were processed

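RNA was extracted from 3 sg*Trp53* and 3 sg*Kmt2c* lines. The labels gave the genotype and the replicate number. All 6 libraries ran in the same 2 lanes of 1 flow cell. The paper states that the lines of a genotype came from different mice. The columns of sg*Kmt2c* replicates 2 and 3 are named 2A and 2T1 and were treated as independent lines. The authors trimmed reads with Trimmomatic, aligned with STAR to GRCm38, assigned reads to genes with HTSeq (strand setting not given in the sources used here) and deposited RPKM values, called FPKM in the methods. Of 21065 rows 209 held no values, and 6 further sample columns matched no sample and were not used. The authors' DESeq2 comparison (fold changes and p-values) was not used. RPKM uses 1 listed transcript length per gene, at times that of a short transcript, so levels between genes are approximate. Values above 0 were whole multiples of a read within 0.1 read in 100% of cases, which gave the reads. Because of the RPKM unit, limma 3.58.1 in R 4.3.3 (lmFit, eBayes with trend) was run on log2(RPKM + 1), after a test on simulated data. The simulated counts had a single dispersion for all genes and no line that stood apart. That test thus does not show how limma performs on lines as unlike as these. Genes below the filter had an exact two-sided permutation test (Python 3.11.15, scipy 1.17.1). Replicates of a genotype differed beyond sampling noise (chi-square per gene 26.5 to 80.3). Floors (3 reads) and 95% intervals of counts cover counting error only. A read at 2 kb is worth 0.0726 to 0.136 RPKM.

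Named genes are all family genes, per pathway list the 3 with the smallest p-value and the 2 with the highest mean RPKM, and the 5 most like *Fabp3*. Members and lists were chosen with earlier results of these data known. The 16 alternatives changed the pseudocount, filter, scaling, moderation, block, lines and model.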

Additional observations from a re-analysis of the deposited data

How the results depend on the processing

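Of the 5 family genes tested beside *Fabp3*, and of the 63 pathway genes, 0 passed the adjusted threshold under all 16 alternatives (limma, 0 to 1 and 3 to 10 genes at an unadjusted p-value under 0.05). The number of genes that passed among all tested was less stable. It was 15, and became 6 with a pseudocount of 0.1, 5 without a filter, 26 with a filter on all lines of a genotype, 4 with limma voom on the reads, 0 with replicates 2 and 3 of sg*Kmt2c* merged into 1 (1053 at an unadjusted p-value under 0.05), and 0 to 8 with a line left out (563 to 1477 unadjusted). The cause was not tested. With a replicate block it was 0 (1085 unadjusted). Deviations of same-numbered lines correlated at 0.192, 0.399 and 0.0316, and those of unlike-numbered lines at -0.284 to 0.152. Replicates 1 and 2 of sg*Trp53* correlated best with the sg*Kmt2c* line of their own number, and replicate 3 with sg*Kmt2c* replicate 1. The labels name no shared origin or batch, and whether the number marks one was not tested. The log2 fold change of *Fabp3*, whose direction the selection fixed, lay between -4.86 and -2.68, and that of *Pparg* between 0.66 and 2.22. Under the filter on all lines of a genotype *Fabp4* and *Fabp7* could not be tested. With a line left out, the log2 fold change of *Fabp4* ranged from -1.03 to 0.80, of *Fabp5* from -0.60 to 0.65, of *Fabp7* from -0.80 to 0.63 and of *Ppard* from -0.043 to 0.34, so that their signs depend on the lines used. The difference of *Cd36* ranged from -0.373 to 12.2 RPKM. That of *Ppara* was -0.0787 RPKM and became -0.146 on the TPM scale. Depth limits *Ppara*, *Fabp2* and the low side of *Fabp3*.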
